A study of Cynoglossus semilaevis with 30 samples.

Results

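Cytochrome P450 genes were followed through 5 tissues of large and small females of a flatfish, the Chinese tongue sole (Cynoglossus semilaevis). A gene belonged to the set when its product name contained cytochrome P450 or its symbol began with cyp and a digit. The gene cyp17a1, both aromatase genes and the P450 genes assigned to the KEGG pathway of steroid biosynthesis (ko00100) were left out. This gave 35 of the 22292 genes measured, of which 31 were found by the names in the table and 4 (cyp7a1, cyp17a2, cyp21a2 and cyp27a2) by their RefSeq symbols. Of the 35, 34 were P450 enzymes and 1, por, was the reductase that supplies them with electrons. P450-type genes whose names did not match this wording were not members.

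Cytochrome P450 enzymes are haem proteins that insert an oxygen atom into their substrate, using electrons passed on by a reductase or by ferredoxin. Families 1 to 3 oxidise drugs, pollutants, fatty acids and steroids, chiefly in the liver, where their genes are switched on by nuclear receptors and by the aryl hydrocarbon receptor. Other families carry fixed steps of metabolism, among them bile acid synthesis, steroid hormone synthesis and the breakdown of retinoic acid.

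RNA had been taken from muscle, gonad, liver, pituitary and brain of females aged 1.7 years in a large and a small size class, with no further treatment or genotype named. The series' design text counts 6 fish per class, and each library pooled the RNA of 2 fish, so each of the 10 groups had 3 libraries and the 30 libraries are pools, not single fish. If no fish entered more than 1 pool of a tissue, the 3 pools used all 6 fish of a class, so the tissues of a class share fish, whereas the fits of 30 libraries take the libraries as independent. The labels do not say whether same-numbered libraries of different tissues hold the same fish. Levels are FPKM (fragments scaled to transcript length and to library size), which are per length and can be compared between genes, and are given for replicates 1, 2 and 3 in that order or as mean ± SD (n = 3 libraries). Changes are log2 fold changes of large minus small ± SE from edgeR's quasi-likelihood test on the estimated counts, with Benjamini-Hochberg adjusted p-values over all genes of the test.

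Library totals ran from 6130667 to 10504899 counts. The 3 libraries of small pituitary, large gonad and small muscle were nearly alike: the mean chi-square of a gene among the 3, near 1 where counting noise is the only spread, was 1.69 to 1.85, 1.94 to 2.51 and 1.77 to 1.92 there, and 5.41 to 47.8 in the other groups. Nothing in the labels says whether these came from separate pools, and p-values measure only the spread between these libraries. Summed FPKM of 12 skeletal muscle markers was 125090 to 158744 in muscle and at most 466 elsewhere. For 9 pituitary markers it was at least 110536 in pituitary and at most 110.4 elsewhere. For 11 oocyte markers it was at least 5290 in gonad and at most 692 elsewhere. The 15 neuron and glia markers reached at least 4884 in brain and at most 785 elsewhere. The 15 hepatocyte markers reached at least 80819 in liver and at most 4422 elsewhere, so the libraries carried the markers of their labelled tissue. In brain the hepatocyte markers summed to 1619 to 4422 FPKM, or 1.81% to 4.95% of their liver level. Their part in the P450 levels of brain was not tested.

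By family, 3 members belonged to family 1, 16 to family 2 and 3 to family 3, a group of 22. Retinoic acid hydroxylases of family 26 made up 4, steroid hormone enzymes 3, fatty acid hydroxylases of family 4 another 2, enzymes of bile acid and cholesterol metabolism 2, and the orphan enzyme cyp20a1 and por 1 each. Of the 32 members found in the RefSeq gene table (assembly Cse_v1.0), 12 lay in 4 runs of neighbouring P450 genes with at most 1 other protein-coding gene between neighbours. The runs were LOC103379543, LOC103379545 and LOC103379566, then 5 genes of the 2K type (LOC103381293, LOC103381294, LOC103381299, LOC103381302 and LOC103381303), the 2J2-like pair LOC103383189 and LOC103383190, and the 3A pair LOC103387006 and LOC103387007. Estimated counts that were not whole occurred for 9 members. Such values can be left where reads are divided among similar copies, but their source was not tested here. Fractional counts were found in 29 of 30 libraries for LOC103379544 and LOC103379566, in 18 for LOC103379545 and in 16 for cyp2n13 and LOC103376729, so the levels of these 5 genes are uncertain.

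Liver held far more P450 RNA than the other tissues. The 34 enzymes summed to 1166 ± 537 FPKM in small and 1776 ± 396 FPKM in large liver, against 276 ± 38.5 and 233 ± 39.3 in brain. Gonad reached 147 ± 9.87 and 149 ± 6.27, pituitary 105 ± 1.25 and 111 ± 8.62, and muscle 78.3 ± 0.412 and 70.9 ± 14.5 FPKM. The size classes overlapped in liver, where the summed levels were 834, 879 and 1786 FPKM in small and 1572, 2232 and 1524 FPKM in large females.

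**Figure D1:**
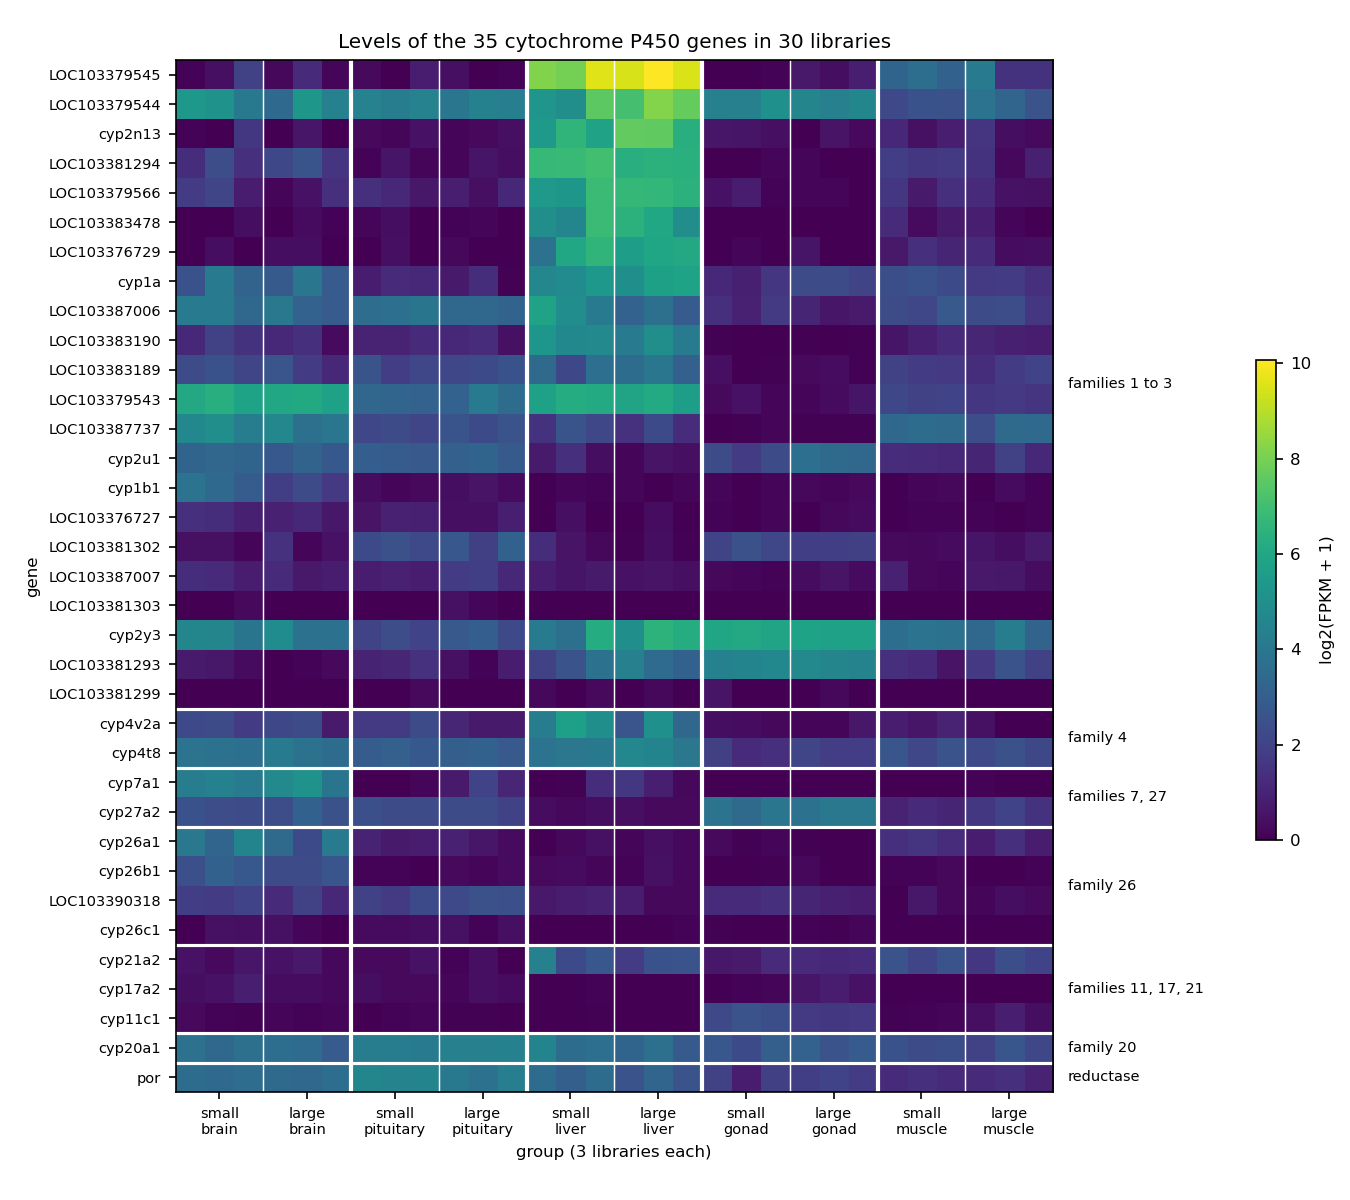
Level of each of the 35 members, as log2(FPKM + 1) by colour, in the 30 libraries, with genes in rows grouped by role and libraries in columns by tissue and size class (3 libraries per group). The brightest cells are those of LOC103379545 in liver, while cyp7a1 and cyp26a1 are bright in brain and cyp2y3 in gonad.

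By mean FPKM, 14 members had their highest level in liver, 9 in brain, 7 in pituitary, 5 in gonad and 0 in muscle. For 18 members all 6 libraries of the highest tissue stood above the other 24, and these were 9 liver, 5 brain, 3 gonad and 1 pituitary genes. Neither of these counts was made over all genes, so they describe the members only. In the fit of all 30 libraries 31 members could be tested. The other 4 (LOC103381299, LOC103381303, cyp26c1 and cyp17a2) stayed under 1 FPKM in every group mean. The counts by highest tissue nonetheless include them, under pituitary (LOC103381303 and cyp26c1), gonad (LOC103381299) and brain (cyp17a2). All 31 differed among tissues at an adjusted p under 0.05, as did 99.1% of all genes, so this count says nothing particular about the set.

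Against the mean of the other 4 tissues, with a log2 difference of at least 2 and an adjusted p under 0.05 required, 19 of the 31 tested members were higher in liver (9.38% of all 19511 genes tested), and 2 were lower (14.1%). Higher in brain were 6 (22%), in gonad 3 (20.4%), in muscle 7 (14.2%) and in pituitary 0 (15.4%). Lower members numbered 6 in brain (5.86%), 9 in pituitary (7.7%), 18 in gonad (23.9%) and 0 in muscle (3.95%). These counts depend on the scale. From edgeR to log2(FPKM + 0.1) the difference of a gene shifted by a median of -1.43 for liver and -1.31 for muscle. For brain, pituitary and gonad the median shift was 1.04, 0.96 and 0.67. Relative to all genes the members stood high in liver on both scales, with a median log2 difference of 3.31 against -0.53 for all genes by edgeR and 1.66 against -1.76 by FPKM. In muscle the members' median was 0.50 against 0.19 by edgeR and -0.84 against -1.11 by FPKM. On log2(FPKM + 1) 11 members were called higher in liver and 0 in muscle. The share of all genes called on that scale was not counted, so these numbers describe the members only. The comparison also averages log2 levels, so tissues near 0 lower the mean that a tissue is set against. Cyp7a1 thus counted as higher in liver at 0.77 FPKM, against 21.5 FPKM in brain. LOC103379545 counted as higher in muscle at 7.95 FPKM, against 632 FPKM in liver.

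The liver's P450 RNA was led by LOC103379545, named after the 2F2 enzyme that activates naphthalene in mouse lung, at 632 FPKM or 42.9% of the summed level over the 6 libraries. Its values were 286, 249 and 768 FPKM in small and 695, 1072 and 720 FPKM in large liver. Next came LOC103379544, of the same name, at 148 FPKM, cyp2n13 of the fatty acid epoxidising 2J type at 111 FPKM, LOC103381294 of the 2K1 type, an enzyme of fatty acids and aflatoxin in trout, at 99.0 FPKM, and LOC103379566 of the 2D9 type at 81.4 FPKM. These 5 made up 72.8% of the sum. Outside the liver LOC103379545, cyp2n13, LOC103376729 and LOC103383478 (3A56-like, of the family that hydroxylates steroids and drugs) had means under 1 FPKM in brain, pituitary and gonad, with 1 exception, 1.12 FPKM of LOC103379545 in small brain.

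Neighbouring genes differed in where they were expressed. LOC103379543 stood at 66.9 ± 10.4 and 61.6 ± 7.86 FPKM in small and large brain and at 65.9 ± 10.8 and 59.0 ± 10.3 FPKM in liver, whereas its neighbour LOC103379545 did not pass 2.98 FPKM in brain. In the run of 2K genes, LOC103381294 led in liver at 79.0 to 130 FPKM and did not pass 0.14 FPKM in gonad. LOC103381293 led in gonad instead, at 20.3, 22.4 and 25.2 FPKM in small and 25.8, 23.0 and 21.6 FPKM in large females, and every gonad library stood above its highest value elsewhere, 19.9 FPKM in liver. Its leading tissue depends on the scale, since edgeR put it 4.13 ± 0.26 above the other tissues in liver and 3.50 ± 0.26 in gonad. LOC103381302 reached 2.61 to 4.67 FPKM in gonad and 2.80 to 7.85 FPKM in pituitary, while LOC103381299 and LOC103381303 did not exceed 0.45 FPKM in any library.

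Cyp7a1, whose product catalyses the rate-limiting step of bile acid synthesis in mammalian liver, was a brain gene in these libraries. Its values were 18.2, 20.4 and 16.8 FPKM in small and 25.6, 34.0 and 14.0 FPKM in large brain, but 0, 0.05 and 1.48 FPKM in small and 2.11, 0.80 and 0.16 FPKM in large liver. No library outside brain exceeded 3.06 FPKM, the level of large pituitary replicate 2. In gonad it was at 0 in all 6 libraries. The log2 difference of brain from the other 4 tissues was 7.29 ± 0.52 (adjusted p = 4.49e-11). Large pituitary replicate 2 also held 15 neuron and glia markers at 12.65% of the brain mean (4.05% to 4.74% in the remaining 5 pituitary libraries), and its cyp7a1 stood at 14.2% of the brain level. The part of this in its cyp7a1 level was not tested.

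The retinoic acid hydroxylases divided between brain and pituitary. Cyp26a1 was at 15.1, 8.86 and 22.6 FPKM in small and 10.2, 3.84 and 17.1 FPKM in large brain, above its highest level elsewhere, 1.83 FPKM in muscle, and cyp26b1 was at 3.86 to 7.85 FPKM in brain and at most 0.35 FPKM elsewhere. LOC103390318, named as similar to cyp26a1, was instead spread over brain (2.25 ± 0.812 FPKM, n = 6 libraries) and pituitary (3.59 ± 0.915 FPKM), with the tissues overlapping. Cyp1b1, an extrahepatic oxidiser of oestradiol in mammals, was at 2.15 to 13.1 FPKM in brain and at most 0.45 FPKM elsewhere, and the second gene of that name, LOC103387737, at 12.2 to 30.6 FPKM in brain and 4.20 to 10.8 FPKM in muscle.

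Gonad was led by cyp2y3 at 57.9 FPKM, 39.2% of the summed level, but this gene was not confined to gonad, since liver libraries ranged from 12.2 to 89.3 FPKM. EdgeR put cyp2y3 3.11 ± 0.23 above the other tissues in liver and 1.34 ± 0.24 in gonad. The steroid 11-beta-hydroxylase gene cyp11c1, which in fish serves the synthesis of 11-oxygenated androgens and cortisol, was at 2.08 to 4.90 FPKM in gonad and at most 0.80 FPKM elsewhere. Cyp27a2, a sterol 26-hydroxylase gene, was at 10.02 to 15.5 FPKM in gonad, 4.0 to 7.81 FPKM in brain and 0.16 to 0.34 FPKM in liver. Cyp21a2, the 21-hydroxylase of cortisol synthesis, was highest in liver (2.48 to 20.05 FPKM) and muscle (2.13 to 4.90 FPKM), which overlapped, and cyp17a2, a 17-alpha-hydroxylase gene, did not pass 0.82 FPKM.

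In pituitary LOC103379544 at 19.01 FPKM and cyp20a1 at 18.8 FPKM led, together making up 34.9% of the sum. The leading 2 members held 53.0% in liver and 54.8% in gonad, but 35.7% in brain and 28.4% in muscle. The reductase por stood at 23.4, 21.6 and 22.0 FPKM in small and 15.7, 12.7 and 18.7 FPKM in large pituitary, above every library of the other tissues (at most 11.6 FPKM, in brain). Its place depends on the scale, since edgeR put por 2.07 ± 0.14 above the other tissues in liver and 1.21 ± 0.14 in pituitary. In muscle cyp2y3 led at 12.1 FPKM, followed by LOC103387737 at 9.06 FPKM.

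The size comparison asked, tissue by tissue, which members differed between the classes at equal age. In whole tissue, fewer cells of a type and less RNA per cell cannot be told apart. In liver, no member passed edgeR's test among 22 tested, where 1.31% of all 11878 genes did (0.732% higher and 0.581% lower in large females). At an unadjusted p under 0.05 there were 9 of the 22 (20.1% of all genes). DESeq2 called 5 (6.26% of all genes in that test), and limma on log2(FPKM + 1) called 1 (11.6%). The median log2 fold change of the members was 0.76, against -0.02 for all genes, with 18 of 22 above 0. By FPKM, where liver genes shifted by a median of -0.61, 11 of 20 members were above 0 and the members' median was 0.36 against -0.59.

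Cyp2n13 had the smallest p in liver, with 41.4, 95.5 and 54.4 FPKM in small and 201, 196 and 77.5 FPKM in large females. Large replicates 1 and 2 were high, and large replicate 3 lay within the small range (log2 2.12 ± 0.45, adjusted p = 0.0575). Cyp4t8, a family 4 gene of fatty acid hydroxylation, was at 13.4, 14.9 and 15.7 FPKM in small and 24.3, 22.1 and 14.9 FPKM in large females (log2 1.29 ± 0.32, adjusted p = 0.0815). Cyp1a, the oxidiser of polycyclic aromatic hydrocarbons that responds to the aryl hydrocarbon receptor, was at 24.2, 27.9 and 40.2 FPKM in small and 31.6, 51.3 and 55.6 FPKM in large females (log2 1.33 ± 0.36, adjusted p = 0.101). In each of these the classes overlapped. LOC103387006, a 3A40-like gene, lay the other way with no overlap, at 54.2, 30.0 and 16.6 FPKM in small and 7.94, 12.0 and 6.54 FPKM in large females (log2 -1.02 ± 0.33, adjusted p = 0.142, and 0.028 with limma on log2(FPKM + 1)). The groups did not overlap for 2 of the 22 members, against 38.2% of all genes, the other being LOC103381294. That gene was at 105, 109 and 130 FPKM in small and 79.0, 87.9 and 82.4 FPKM in large liver, lower in all large libraries, whereas edgeR placed it above 0 (log2 0.32 ± 0.31, adjusted p = 0.597), so its direction depends on the scale.

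**Figure D2:**
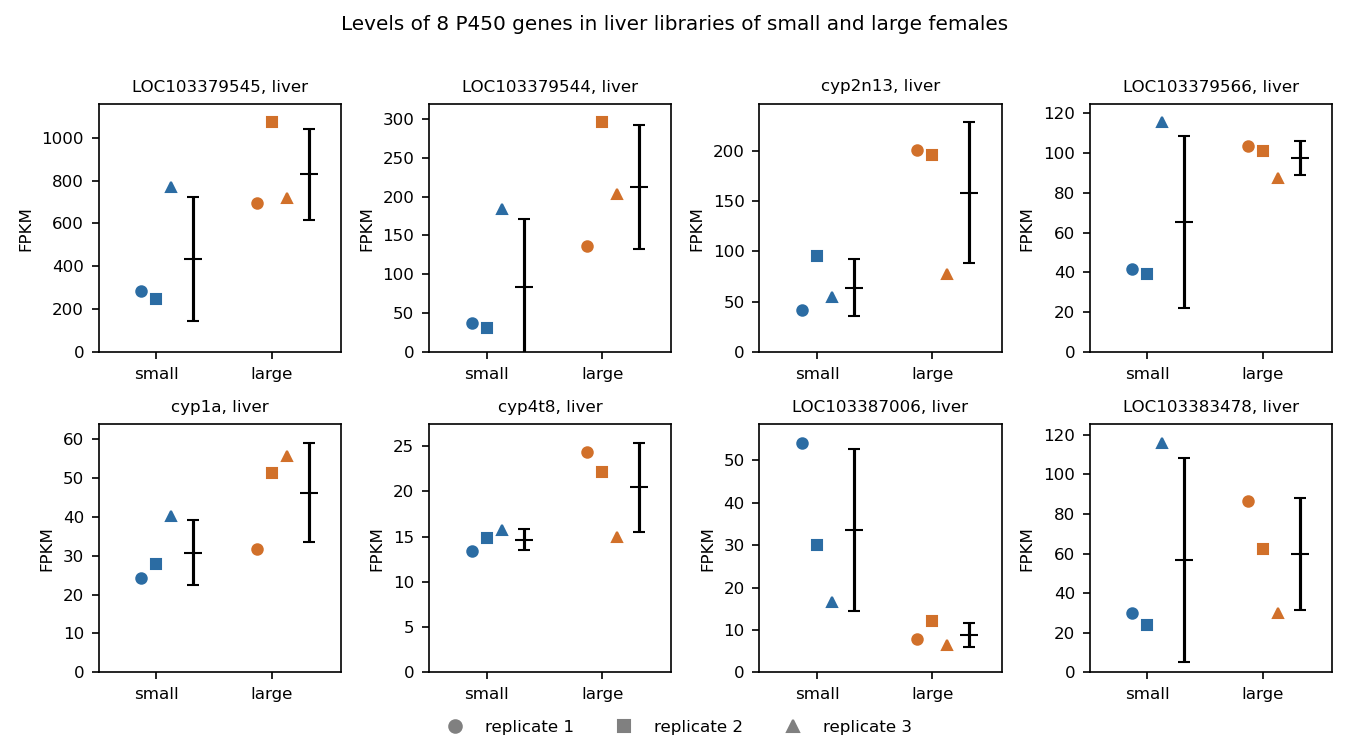
FPKM of 8 members in the liver libraries of small (blue) and large (orange) females, each symbol a replicate and the bar the mean ± SD of 3 libraries. Bars are cut at 0. Small replicate 3 lies above the large libraries for LOC103379566 and LOC103383478, and only LOC103387006 shows no overlap.

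Small liver replicate 3 stood apart from the other small livers. LOC103379544 was at 37.0, 30.6 and 184 FPKM in small and 137, 295 and 204 FPKM in large females, LOC103379566 at 41.5, 39.4 and 115 FPKM against 87.5 to 103 FPKM, and cyp2y3 at 17.3, 12.2 and 73.7 against 31.1, 89.3 and 74.8 FPKM. Without that library 11 members passed, 10 higher in large females (among them LOC103379544 with log2 3.50 ± 0.35, LOC103379545 with 2.52 ± 0.36 and cyp2y3 with 2.99 ± 0.41) and LOC103387006 lower, where 9.75% of all genes passed in the same test. Leaving out any of the other 5 liver libraries gave 0 (0.135% to 1% of all genes). The 5 marker genes of the exocrine pancreas, which in many fish lies within or beside the liver, summed to 7138, 18964 and 38638 FPKM in small and 62328, 28455 and 81901 FPKM in large liver, with all 5 above 0 in each library, 0 called and a median log2 fold change of 2.14. The 15 hepatocyte markers, all above 0 in each library, summed to 81117 to 98070 FPKM in small and 80819 to 103228 FPKM in large liver. The part of either list in the P450 values was not tested.

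In gonad 5 of 14 tested members passed, 2 higher and 3 lower in large females (24.5% of all 14123 genes, 10.9% higher and 13.5% lower), and 8 had an unadjusted p under 0.05 (39.2% of all genes). The FPKM of the 2 classes did not overlap for 6 of the 14, against 53.9% of all genes. Cyp11c1 was at 3.67, 4.90 and 4.31 FPKM in small and 2.27, 2.08 and 2.17 FPKM in large gonad, all small libraries lying above all large, and fell by 1.29 on the log2 scale (SE 0.20, adjusted p = 0.00304). Cyp2u1, which hydroxylates long-chain fatty acids in mammals, rose from 4.02, 2.47 and 3.98 to 11.7, 10.05 and 8.92 FPKM, again with no overlap (log2 1.27 ± 0.21, adjusted p = 0.004). These 2 calls held whichever of the 6 libraries was left out.

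The other 3 gonad calls rested on fewer libraries. Cyp1a rose from 1.25, 0.85 and 1.99 to 4.04, 3.98 and 3.20 FPKM (log2 1.14 ± 0.30, adjusted p = 0.0234), every large library lying above every small one. Cyp2y3 fell by 0.47 on the log2 scale (SE 0.12, adjusted p = 0.0185), from 59.3, 66.7 and 57.2 to 56.4, 53.7 and 53.9 FPKM, a gap of less than 1 FPKM between the nearest libraries. LOC103381302, of the 2K1 type, fell by 0.81 (SE 0.24, adjusted p = 0.0363), from 3.23, 4.67 and 3.40 to 2.62, 2.61 and 2.78 FPKM. Leaving out single libraries ended the call of cyp1a in 4 of 6 cases (adjusted p up to 0.101), of cyp2y3 in 3 (up to 0.0956) and of LOC103381302 in 4 (up to 0.13). Limma on log2(FPKM + 1), a scale on which gonad genes shifted upward by a median of 0.30, called 2 higher and 1 lower (36.1% of all genes). These were cyp1a, cyp2u1 and cyp11c1. Summing the 3 nearly alike large libraries leaves 1 library in that class, so that fit cannot decide whether the calls hold.

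Gonad members outside these calls included cyp27a2, at 12.6 ± 2.31 FPKM in small and 14.5 ± 1.55 FPKM in large females (adjusted p = 0.666), and LOC103381293, at 22.6 ± 2.45 and 23.5 ± 2.12 FPKM (adjusted p = 0.206). Cyp17a2 had too few counts for the test, with 0, 0.06 and 0.14 FPKM in small and 0.54, 0.70 and 0.42 FPKM in large gonad. The 11 oocyte markers, of which 10 or 11 were above 0 in each library, summed to 6136 to 7060 FPKM in small and 5290 to 5454 FPKM in large gonad. Of the 10 tested, 1 rose and 3 fell, and sycp3 alone was at 0 in some libraries. Their part in the P450 values was not tested.

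**Figure D3:**
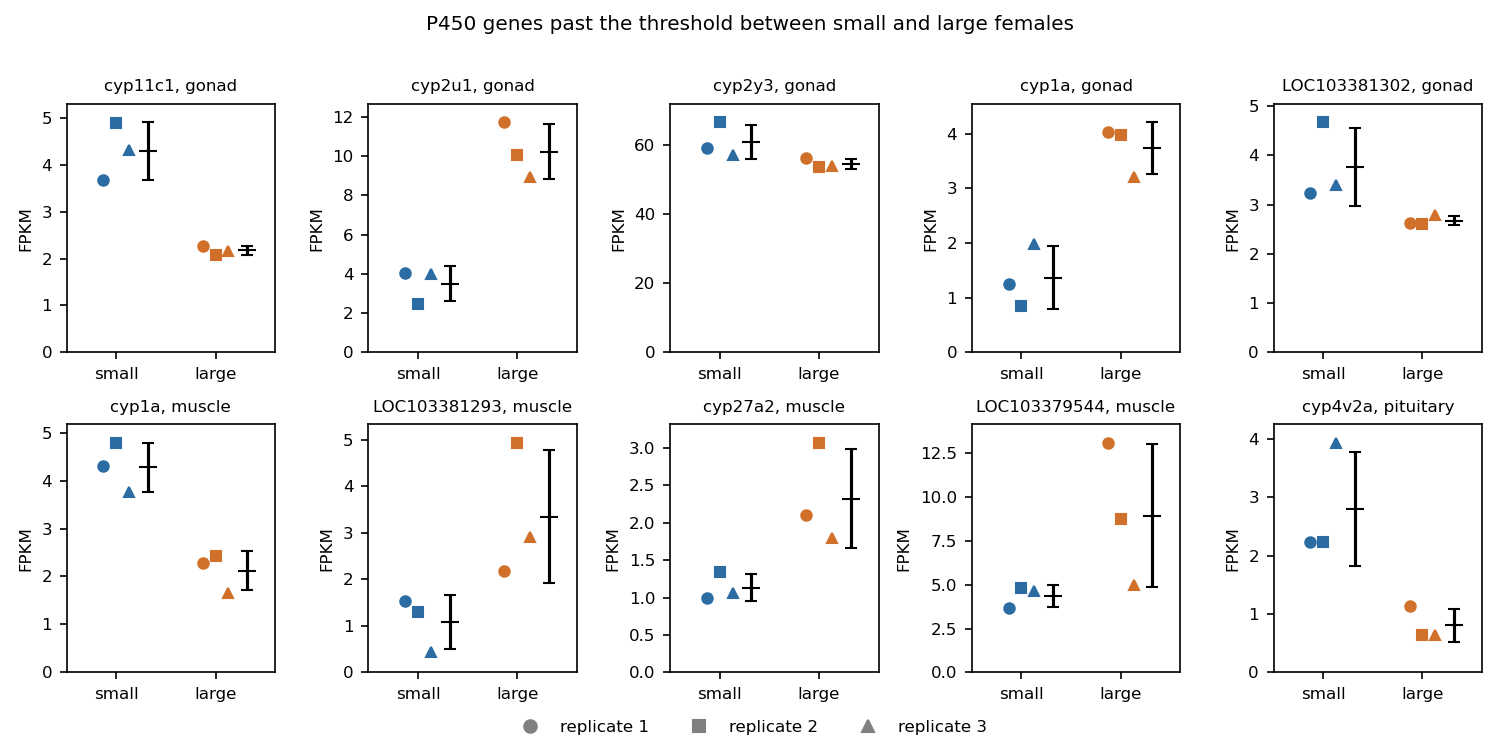
FPKM of the 10 members past the threshold between size classes, 5 in gonad, 4 in muscle and 1 in pituitary, with each symbol a replicate library of small (blue) or large (orange) females and the bar the mean ± SD of 3 libraries. In every panel the libraries of small and large females do not overlap.

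In muscle 4 of 22 tested members passed, 3 higher and 1 lower (23.5% of all 13301 genes, 13.1% higher and 10.4% lower), 6 showed no overlap (38.3%), and 5 had an unadjusted p under 0.05 (37.6%). Cyp1a fell by 1.05 on the log2 scale (SE 0.21, adjusted p = 0.00848), from 4.30, 4.78 and 3.76 to 2.29, 2.42 and 1.65 FPKM. All small libraries lay above all large ones, and the call ended in 1 of 6 cases of a library left out (adjusted p = 0.0509). LOC103381293 rose from 1.53, 1.29 and 0.43 to 2.18, 4.94 and 2.92 FPKM (log2 1.58 ± 0.44, adjusted p = 0.0285). Cyp27a2 rose from 1.0, 1.34 and 1.06 to 2.10, 3.07 and 1.80 FPKM (log2 0.99 ± 0.29, adjusted p = 0.0335), and LOC103379544 from 3.66, 4.79 and 4.65 to 13.1, 8.73 and 4.98 FPKM (log2 0.99 ± 0.30, adjusted p = 0.0404).

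LOC103381293 kept its call in 1 of 6 cases of a library left out (adjusted p up to 0.0883), and cyp27a2 and LOC103379544 in 2 each (up to 0.132 and 0.154). On log2(FPKM + 1) limma called 0 higher and 1 lower, cyp1a (13.2% of all genes). Summing the 3 nearly alike small libraries leaves 1 library in that class, so that fit cannot decide whether the calls hold. The fit of 30 libraries called LOC103381293, cyp27a2 and cyp11c1 higher (21.2% of all genes passed) and did not call cyp1a. By FPKM, LOC103381293 and cyp27a2 are genes with their highest level in gonad, and oocyte markers moved with them. For LOC103381293 edgeR placed liver above gonad. In the small muscle libraries 11 oocyte markers stood at 2.25%, 2.48% and 2.44% of their gonad level, and in the large at 4.87%, 11.6% and 6.02%. Of the 9 tested, 8 rose, and all 11 but sycp3 and figla were above 0 in every muscle library. LOC103381293 stood at 6.64%, 5.60% and 1.87% of its gonad level in small and 9.46%, 21.4% and 12.7% in large muscle, and cyp27a2 at 7.37%, 9.88% and 7.81% against 15.5%, 22.6% and 13.3%. Both were highest in large replicate 2, as were the markers. Cyp2y3, also with its highest mean in gonad, was at 11.4, 13.2 and 12.9 FPKM in small and 9.24, 17.8 and 8.32 FPKM in large muscle. It was not called by edgeR in muscle (log2 -0.17 ± 0.20, adjusted p = 0.579). Cyp11c1, too low for the muscle test, was also highest in large replicate 2, at 0.03, 0.07 and 0.12 FPKM in small and 0.34, 0.80 and 0.31 FPKM in large muscle. The part of the oocyte markers in these results was not tested.

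Some members with their highest level in liver separated the muscle libraries differently. LOC103379545 was at 8.35, 11.6 and 7.83 FPKM in small and 16.4, 1.75 and 1.78 FPKM in large muscle, which is 1.24% to 1.83% of its liver level in small and 2.60%, 0.277% and 0.282% in large. The 15 hepatocyte markers stood at 2.07%, 2.13% and 2.13% of their liver level in small and 2.60%, 0.217% and 0.19% in large muscle, with ttr alone at 0 in some libraries. Large replicate 1 thus lay with the small libraries for both. This pattern was not seen for cyp1a, cyp4t8, cyp21a2, LOC103383189, LOC103383190 and LOC103387006, which were also highest in liver by FPKM. LOC103379544, another such gene, went from 3.66, 4.79 and 4.65 FPKM in small to 13.1, 8.73 and 4.98 FPKM in large muscle. Without large replicate 1, 9 of 23 members passed in place of 4 of 22, where 28.3% of all genes passed in the same test. LOC103379545 (log2 -2.48 ± 0.29, adjusted p = 0.000293), LOC103381294, LOC103379566, LOC103376729, LOC103383478 and cyp4v2a were then lower, and LOC103379544 no longer passed. The part of the hepatocyte markers in these values was not tested.

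**Figure D4:**
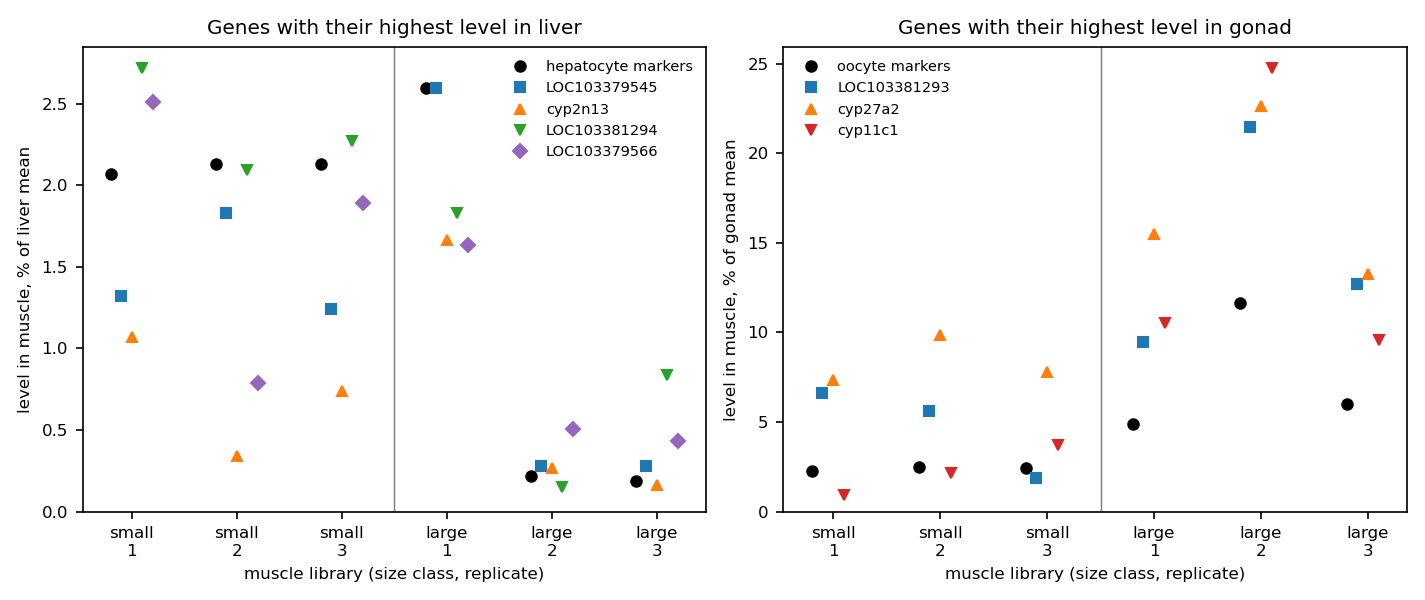
Level in each of the 6 muscle libraries as % of the mean level in the source tissue. The left panel holds hepatocyte markers and 4 of the 14 members with their highest mean FPKM in liver. The right panel holds oocyte markers and 3 of the 5 members with their highest mean FPKM in gonad. On the left large replicates 2 and 3 are the lowest for the markers and LOC103379545, and on the right large replicate 2 is the highest for all 4 series.

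In pituitary 1 of 20 tested members passed, 0 higher and 1 lower (5.82% of all 15668 genes, 2.42% higher and 3.4% lower), and 7 had an unadjusted p under 0.05 (22.8%). Cyp4v2a, a fatty acid hydroxylase gene whose human counterpart is mutated in Bietti crystalline dystrophy, was at 2.24, 2.23 and 3.94 FPKM in small and 1.14, 0.65 and 0.64 FPKM in large females. The classes did not overlap, and it fell by 1.83 on the log2 scale (SE 0.39, adjusted p = 0.0306). This call ended in 4 of 6 cases of a library left out (adjusted p up to 0.152). Summing the 3 nearly alike small libraries leaves 1 library in that class, so that fit cannot decide whether the call holds. Cyp4v2a had its highest level in liver, and in pituitary it stood at 9.17%, 9.13% and 16.1% of its liver level in small and 4.67%, 2.66% and 2.62% in large females. The 15 hepatocyte markers summed to 199, 215 and 219 FPKM in small and 92.1, 416 and 121 FPKM in large pituitary, or 0.223% to 0.245% and 0.103% to 0.466% of their liver level. Of these markers 14 were above 0 in each large library, with ttr at 0, and 4 of 14 tested fell and 0 rose (median log2 -1.74), and their part in the cyp4v2a result was not tested. Por, at 22.3 ± 0.930 and 15.7 ± 2.99 FPKM with no overlap, did not pass (log2 -0.55 ± 0.14, adjusted p = 0.0624), and neither did LOC103387007 of the 3A27 type, at 0.70, 0.89 and 0.77 against 2.32, 2.61 and 1.22 FPKM (log2 1.39 ± 0.40, adjusted p = 0.0816). LOC103381293 was at 0.96, 1.12 and 1.68 against 0.35, 0.08 and 0.71 FPKM (log2 -1.73 ± 0.60, adjusted p = 0.135). The orphan cyp20a1 was at 17.6 ± 1.12 and 20.1 ± 0.521 FPKM, also apart but with a small difference (log2 0.14 ± 0.10, adjusted p = 0.468). In all 6 members showed no overlap, against 29.6% of all genes.

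Large pituitary replicate 2 held more neuron and glia RNA than the other pituitary libraries. Its skeletal muscle markers summed to 435 FPKM, against 7.74 to 10.3 FPKM in the others. Its hepatocyte markers were the highest (416 FPKM) and its pituitary markers the lowest (110536 FPKM). The part of these markers in the pituitary results was not tested. Without this library 4 of 21 members passed (15% of all genes in the same test). Cyp4v2a, por (log2 -0.42 ± 0.10, adjusted p = 0.0152) and LOC103387006 (-0.57 ± 0.16, adjusted p = 0.036) were then lower and LOC103381302 (0.71 ± 0.20, adjusted p = 0.0365) higher in large females. Without large replicate 1 or large replicate 3 the count was 2 (4.36% and 6.3% of all genes), and without any small library 0 (0.802% to 0.967%). Cyp7a1 was not tested in pituitary at 0, 0 and 0.14 FPKM in small and 0.64, 3.06 and 1.14 FPKM in large females, and passed where low counts were kept (adjusted p = 0.0326).

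In brain no member passed edgeR's test among 23 (0.0118% of all 16878 genes, 0.00592% in each direction). At an unadjusted p under 0.05 there was 1 (6.33% of all genes), and DESeq2 called 1 (0.605%), in both cases cyp1b1. It was at 13.1, 9.99 and 6.60 FPKM in small and 2.61, 4.06 and 2.15 FPKM in large brain, with no overlap (log2 -1.61 ± 0.30, adjusted p = 0.435, and 0.00221 with DESeq2). Non-overlapping groups were seen for 2 of 23 members, against 14.6% of all genes, the other being cyp2u1 at 8.68 ± 0.261 and 6.63 ± 1.39 FPKM. Cyp7a1 averaged 18.4 and 24.5 FPKM in small and large brain (log2 0.53 ± 0.23, adjusted p = 0.794). The next smallest p-values were those of cyp27a2 (log2 0.50 ± 0.26, adjusted p = 0.83) and LOC103379566 (-1.51 ± 0.88, adjusted p = 0.854). Means were, for cyp26a1, 15.5 ± 6.85 and 10.4 ± 6.61 FPKM (adjusted p = 0.941), and, for LOC103387737, 24.8 ± 6.09 and 16.9 ± 6.32 FPKM (adjusted p = 0.883). Large brain replicate 3 held the oocyte markers at 1.39% of their gonad level, against 0.116% to 0.39% in the other brain libraries. FPKM shifted brain genes by a median of -0.14.

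Set side by side, the size effect differed between tissues for 6 of 31 members (25.9% of all 19511 genes), by an F test of the difference itself over all 30 libraries. Cyp1a (adjusted p of the difference = 0.0268) passed in opposite directions in the fits of single tissues, higher in large gonad and lower in large muscle. The F test does not say which tissues differ. In the fit of 30 libraries cyp1a was called in liver (log2 1.25 ± 0.40, adjusted p = 0.0374) but in neither gonad nor muscle. Cyp2u1 (adjusted p of the difference = 0.0233) had its largest log2 fold change in gonad, at 1.27 ± 0.21. Cyp4t8 (0.0175) had its largest in liver, at 1.29 ± 0.32, where it did not pass. LOC103381293 (0.00826) had a log2 fold change of 1.58 ± 0.44 in muscle and 1.68 ± 0.64 in liver, but -0.26 ± 0.14 in gonad and -1.73 ± 0.60 in pituitary, and cyp27a2 (0.0271) was near 0 in gonad at -0.10 ± 0.15 and at 0.99 ± 0.29 in muscle. In gonad the direction of LOC103381293 and cyp27a2 depends on the scale, since the FPKM means of both were slightly higher in large females. The smallest adjusted p of the difference belonged to cyp11c1 (0.00487), tested within 1 tissue only. Leaving out replicate 1 of every group gave a count of 1, leaving out replicate 2 gave 0 and leaving out replicate 3 gave 5 (6.13%, 4.91% and 14.3% of all genes). Of the 6 named members, cyp11c1 passed in the first and the last of these, LOC103381293 in the last, and the other 4 in none (adjusted p 0.0509 to 0.326). Limma on log2(FPKM + 1) and on log2(FPKM + 0.1) did not call cyp4t8 or cyp27a2. With same-numbered libraries of a class taken as 1 block across tissues, an alternative chosen after seeing the data, all 6 passed among 7 members (22.8% of all genes).

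**Figure D5:**
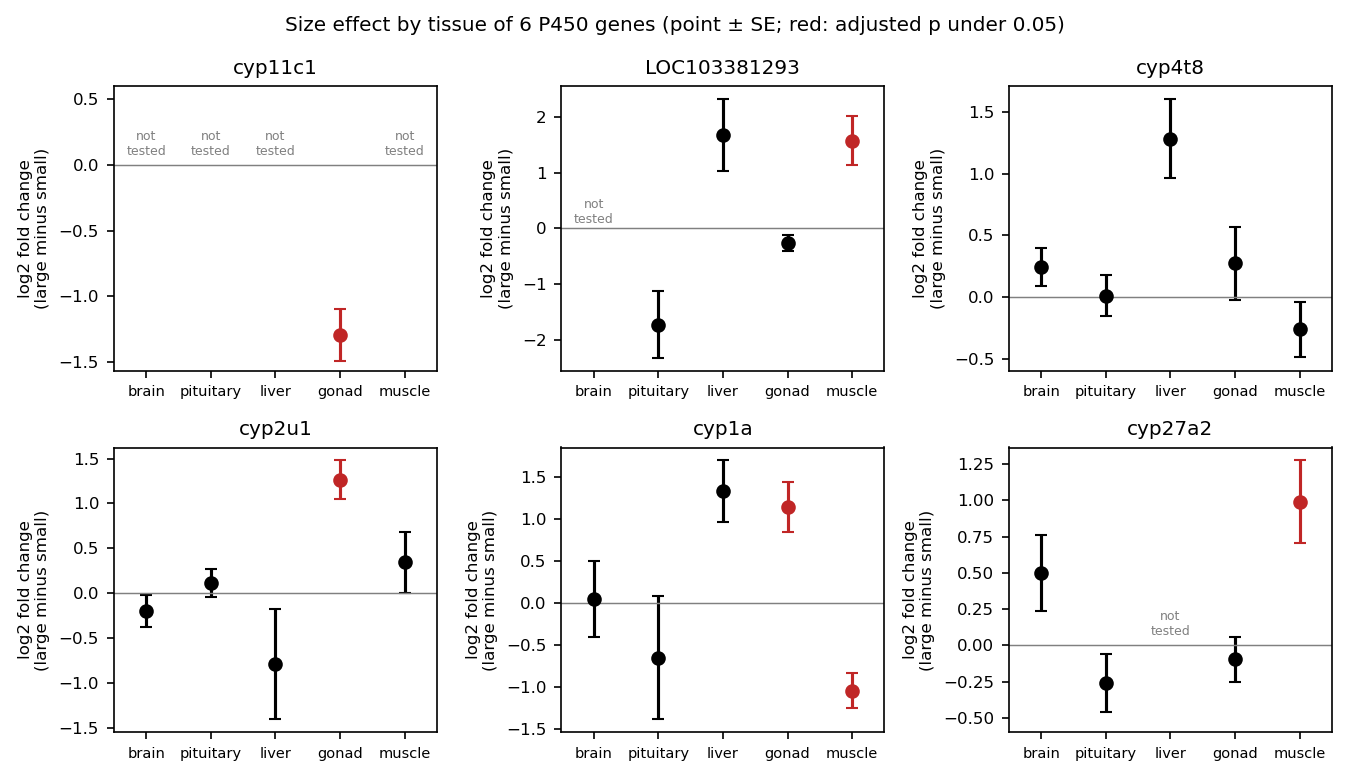
Log2 fold change of large minus small ± SE in each tissue for the 6 members whose size effect differed between tissues, with red for an adjusted p under 0.05 within that tissue and tissues with too few counts marked as not tested. Cyp1a lies above 0 in gonad and below 0 in muscle.

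Partners of the P450 enzymes were followed as lists. Of 9 electron donors and heme-binding partners tested in each tissue, 0 rose or fell in brain, 2 rose in pituitary, 1 rose in liver, 2 rose and 1 fell in gonad and 1 rose in muscle. These and the following list counts are to be read against the shares of all genes that passed, which were 24.5% for gonad, 23.5% for muscle, 5.82% for pituitary, 1.31% for liver and 0.0118% for brain. The cytochrome b5 reductase gene cyb5r2 rose in liver from 21.9 ± 12.6 to 107 ± 28.0 FPKM (log2 3.04 ± 0.56, adjusted p = 0.0378). The ferredoxin gene fdx1, which serves the mitochondrial P450 enzymes, fell in gonad by 0.35 on edgeR's log2 scale (SE 0.10, adjusted p = 0.0286). Its FPKM went from 91.7 ± 4.19 to 89.1 ± 3.44, a gap smaller than either SD. The size of this fall depends on the scale, since FPKM shifted gonad genes upward by a median of 0.30. In muscle fdx1 rose from 5.57 ± 0.512 to 10.1 ± 3.34 FPKM (adjusted p = 0.0232), levels well below those in gonad. Oocyte markers stood higher in the same large muscle libraries, and their part in this rise was not tested. Of the transcriptional regulators, 1 of 17 tested fell in liver, ppard (log2 -1.53 ± 0.26, adjusted p = 0.0301), and in muscle 1 of 14 rose, rara, and 1 fell, arnt. The last, the partner of the aryl hydrocarbon receptor, went from 2.19 ± 0.397 to 0.977 ± 0.179 FPKM (log2 -1.20 ± 0.27, adjusted p = 0.0134).

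Enzymes that conjugate P450 products changed in a few cases. Of 12 tested in liver 0 rose and 1 fell, the glucuronosyltransferase gene UGT2B31, from 28.1 ± 8.66 to 2.91 ± 1.79 FPKM (log2 -2.59 ± 0.31, adjusted p = 0.00738), and this gene rose in pituitary from 2.13 ± 0.213 to 12.6 ± 2.69 FPKM (log2 2.51 ± 0.18, adjusted p = 0.000729). In muscle 3 of 10 rose and 1 fell, and in gonad 0 of 9 rose and 2 fell, near the share of all genes in gonad. Genes of retinoid handling counted 0 of 12 in liver, 2 falls of 13 in pituitary, 3 rises and 1 fall of 10 in gonad and 2 rises and 1 fall of 12 in muscle, where the carotenoid-cleaving bco2 fell from 7.95 ± 0.350 to 2.23 ± 0.469 FPKM (adjusted p = 0.00242). Of the genes of bile acid synthesis and transport, 0 of 10 passed in brain, where cyp7a1 was expressed, 0 of 12 in liver and 0 of 7 in gonad. In pituitary 2 of 8 rose and 0 fell, and in muscle 0 of 8 rose and 3 fell.

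The P450 genes of vitamin D metabolism lay outside the set because of their pathway annotation. The vitamin D 24-hydroxylase gene cyp24a1, whose product inactivates the hormone, was at 714, 1342 and 452 FPKM in small and 33.2, 86.9 and 91.6 FPKM in large liver, on average 836 FPKM in small liver, where the highest member, LOC103379545, averaged 435 FPKM. It fell by 2.76 on the log2 scale in liver (SE 0.46, adjusted p = 0.03) and by 4.52 in muscle (SE 0.33, adjusted p = 0.000484), where it went from 6.28, 4.85 and 5.35 to 0.27, 0.22 and 0.23 FPKM. Pituitary stood at 2.57, 2.46 and 2.26 FPKM in small and 9.07, 2.67 and 10.3 FPKM in large females (adjusted p = 0.0827), and gonad and brain at most at 1.06 FPKM. The 25-hydroxylase gene cyp2r1 was at 0, 0.07 and 0 FPKM in small and 1.82, 1.47 and 2.0 FPKM in large liver (adjusted p = 0.00738), and the 1-alpha-hydroxylase gene cyp27b1 at 0, 0.17 and 7.69 against 14.98, 17.96 and 16.72 FPKM (adjusted p = 0.185).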

How the data were processed

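The deposited table, made by the authors, holds FPKM values and estimated counts per gene and library, per the file headers, and 2.0% of the deposited counts were not whole. EdgeR appears in the submitters' processing notes with neither version nor purpose. Not given in the sources used here: the aligner, how counts were estimated, and the build. Symbols were added from the RefSeq table (Cse_v1.0), which matched 19502 genes. Fractional counts were rounded. For each tissue, the size classes were tested with R 4.3.3 and edgeR 4.0.16 (quasi-likelihood test, filterByExpr, TMM, two-sided, threshold 0.05), and tissues and the interaction were tested over all 30 libraries in 10 groups. Counts of 0 in a library allow up to 0.286 to 0.489 CPM (3 counts, counting error only). The methods were tested on simulated data.

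Alternatives were DESeq2 1.42.0, limma 3.58.1 on log2(FPKM + 1) or log2(FPKM + 0.1) for genes of at least 1 FPKM in 3 libraries or for all genes, edgeR without its count filter, scaling by median of ratios, 1 fit of 30 libraries, a replicate block, a replicate block within each size class (chosen after seeing the data), leaving out libraries and summing nearly alike ones (the lone sum was then assumed to vary like the other class). Fits with such a sum leave 1 library in a class, so only their effect sizes are given. Same-numbered libraries of the size classes correlated at -0.05 to 0.19 in their deviations and were not treated as pairs. Members, gene lists and tests were chosen with earlier results of these data known. Named genes were all members past the threshold, per tissue the 4 with the smallest p, the 10 with the highest level, the 2 leading in each role, members of fixed families, and up to 3 genes per partner list; others named were chosen after their values were seen. Python 3.11.15 with pandas 2.3.3, numpy 2.4.6 and matplotlib 3.10.9 served for tables and plots.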

Additional observations from a re-analysis of the deposited data

Results flagged for a closer look

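The size effect of 6 members, cyp11c1, LOC103381293, cyp4t8, cyp2u1, cyp1a and cyp27a2, differed between tissues by edgeR's F test of the difference over 30 libraries, with adjusted p = 0.00487, 0.00826, 0.0175, 0.0233, 0.0268 and 0.0271 in that order (25.9% of all genes tested passed). Without replicate 1 of every group only cyp11c1 of the 6 passed, without replicate 2 none, and without replicate 3 cyp11c1 and LOC103381293. Limma on log2(FPKM + 1) and on log2(FPKM + 0.1) did not call cyp4t8 or cyp27a2. In the fits of single tissues cyp1a stood at a log2 fold change of 1.14 ± 0.30 in gonad, -1.05 ± 0.21 in muscle and 1.33 ± 0.36 in liver. The fit of 30 libraries called cyp1a in liver but in neither gonad nor muscle. Cyp2u1 was at 1.27 ± 0.21 in gonad and -0.19 ± 0.18 in brain, and cyp4t8 at 1.29 ± 0.32 in liver and -0.26 ± 0.22 in muscle. For cyp11c1 and for LOC103381293 and cyp27a2 in muscle, oocyte markers stood higher in the same large muscle libraries, and their part was not tested.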

How the results depend on the processing

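The single values followed were size effects of members called or among the 4 smallest p of a tissue, and passing differences of a member's highest tissue. None of these fold changes changed direction under the alternatives tried. They were picked for a small p, so this does not describe the other members. Adjusted p-values of differences between tissues were also followed and have no direction. Over all members directions did change with the scale: with limma on log2(FPKM + 1), 4 of 23 members in brain stood above 0 in place of 8, 11 of 20 in liver in place of 18 of 22, and 8 of 14 in gonad in place of 5, where the median went from -0.18 to 0.13. Counts of members called between size classes moved as follows, with the share of all genes called in the same test in brackets. In brain DESeq2 called 1 (0.605%) in place of 0 (0.0118%). In pituitary, in place of 1 (5.82%), DESeq2 called 3 (6.88%) and no count filter 2 (3.82%). Limma without a filter (2.95%), the fit of 30 libraries (1.67%) and the replicate block (3.81%) called 0. Leaving out a library gave 0 to 4 (0.802% to 15%). With the small libraries summed, the members' median was -0.096 in place of -0.09. In liver, in place of 0 (1.31%), DESeq2 called 5 (6.26%), the fit of 30 libraries 7 (12.7%) and no count filter 2 (3.33%). Limma called 1 at pseudocounts of 1 (11.6%) and 0.1 (8.47%). The replicate block called 1 (2.13%), and leaving out a library gave 0 to 11 (0.135% to 9.75%). In gonad, in place of 5 (24.5%), limma called 3 at pseudocounts of 1 (36.1%) and 0.1 (34.3%), cyp1a, cyp2u1 and cyp11c1. The fit of 30 libraries called 3 others in part (9.68%), cyp2u1, cyp11c1 and LOC103387006, but not cyp1a. No count filter gave 7 (16.9%), the replicate block 4 (20.9%), and leaving out a library 2 to 7 (7.86% to 27.3%). With the large libraries summed, the members' median was -0.09 in place of -0.18. In muscle, in place of 4 (23.5%), limma called 1 at pseudocounts of 1 (13.2%) and 0.1 (13%) and 0 without a filter (3.31%). The fit of 30 libraries called 3 (21.2%), LOC103381293, cyp11c1 and cyp27a2, but not cyp1a. The replicate block gave 2 (21.6%), and leaving out a library 0 to 9 (9.02% to 28.3%). With the small libraries summed, the members' median was -0.311 in place of -0.308. The 6 differences between tissues became 0 to 5 without 1 replicate number, with 1, 0 and 2 of the 6 among those called without replicate 1, 2 and 3. Limma on log2(FPKM + 1) called 8 (41.9% of all genes) and on log2(FPKM + 0.1) 6 (38.3%), with 4 of the 6 in each. Cyp4t8 and cyp27a2 were called on neither scale. A block of replicate number within each size class, chosen after seeing the data, called 7, all 6 among them. Members called higher in liver numbered 11 in place of 19 with limma on log2(FPKM + 1). Those higher in pituitary numbered 3 in place of 0 with limma on log2(FPKM + 0.1), 1 with no count filter, 0 to 2 without 1 replicate number, and 1 without large pituitary replicate 2 and replicate 3 of large and small brain, an alternative chosen after seeing the data. Higher in gonad were 5 in place of 3 with limma on log2(FPKM + 0.1), and higher in muscle 0 and 1 in place of 7 with limma at the pseudocounts of 1 and 0.1. For these counts of members higher in a tissue, the share of all genes under the same alternative was not counted, so they describe the members only. Which of the changes under the alternatives follow from scale, spread or low counts was not tested. Among single members, 556 values kept their side of the threshold and, where they were fold changes, their direction, while 88 lost and 21 gained a call. The fits with summed libraries are part of this tally. With 3 libraries per group and 3 groups nearly alike, most calls in pituitary, gonad and muscle rest on libraries whose independence is not known, and the 4 members under 1 FPKM in every group mean had too few counts for the fit of 30 libraries.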
